A study of Mus musculus with 17 samples.

Results

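*Galnt7*, *Agbl2* and *Fam171b* are 3 protein-coding genes among the 2615 genes of a deposited count table from mouse oocytes labelled MII. They were chosen by their counts in the 6 libraries, which were close to 0 in control and high in Ehmt2GKO oocytes. These values are therefore given below as a description, without a test. The study deleted *Ehmt2* in oocytes and sequenced RNA from 3 control and 3 Ehmt2GKO libraries. Control oocytes came from females with the *Ehmt2* flox/flox genotype, and Ehmt2GKO oocytes from *Ehmt2* flox/flox; Gdf9-Cre females, so that both groups carried the floxed allele and only the second group carried the transgene. All mice were of the C57BL/6J strain and 8 weeks old. The Gdf9 promoter drives Cre in oocytes from the primordial follicle stage onward, and the controls lacked Cre. The labels give the stage as MII for both groups, while the paper describes superovulated oocytes and an arrest of most Ehmt2GKO oocytes within the first meiotic division. The groups may therefore not be matched in stage, and stage and genotype cannot be told apart here. How many oocytes or females stand behind a library is not given in the sources used here. P values below therefore measure the spread between libraries only, which may be technical.

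EHMT2, also called G9a, is a histone methyltransferase that places the repressive marks H3K9me1 and H3K9me2. GALNT7 is a Golgi enzyme that extends mucin-type O-glycosylation by adding N-acetylgalactosamine to peptides that already carry this sugar. AGBL2, also called CCP2, is a cytosolic carboxypeptidase that removes glutamate side chains from polyglutamylated tubulin, a modification best known from centrioles and cilia. FAM171B is a membrane protein with a single predicted membrane-spanning segment whose function is poorly known.

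*Galnt7* (ENSMUSG00000031608) spans 129.2 kb of chromosome 8, from 57523828 to 57653032 in the GRCm38 assembly, and is read from the minus strand. The longest transcript annotated for it is 4313 nt long, in 12 exons. *Agbl2* (ENSMUSG00000040812) spans 51.7 kb of chromosome 2, from 90782727 to 90834437, and is read from the plus strand, with 18 exons and 4507 nt in its longest transcript. *Fam171b* (ENSMUSG00000048388) lies on the same chromosome and strand from 83812636 to 83883486, spans 70.9 kb and has 8 exons and 5614 nt. No near-identical copy of any of the 3 longest transcripts was found among the annotated transcripts of other genes. *Galnt7* overlaps 8 other annotated genes, and *Agbl2* overlaps 1, a processed pseudogene. None of these overlapping genes is listed. The library chemistry does not mark strand, so reads from them, on either strand, could have been counted on *Galnt7* and *Agbl2*.

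The promoter sequences are shown because they lie where transcription of genes with almost no control reads would begin. The table of RefSeq promoters on GRCm38.p6 held 2 of the 3 genes, and *Fam171b* had no entry. Each sequence gives the 250 bases before the annotated start in the direction of transcription, with CpG dinucleotides in capitals. The *Galnt7* sequence is chr8:57653056-57653305, minus strand, and the *Agbl2* sequence is chr2:90782477-90782726, plus strand.
Galnt7: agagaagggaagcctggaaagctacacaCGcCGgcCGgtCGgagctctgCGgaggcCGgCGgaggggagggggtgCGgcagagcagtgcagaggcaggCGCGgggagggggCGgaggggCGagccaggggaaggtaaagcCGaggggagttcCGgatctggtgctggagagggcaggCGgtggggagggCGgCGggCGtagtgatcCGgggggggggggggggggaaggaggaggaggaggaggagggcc
Agbl2: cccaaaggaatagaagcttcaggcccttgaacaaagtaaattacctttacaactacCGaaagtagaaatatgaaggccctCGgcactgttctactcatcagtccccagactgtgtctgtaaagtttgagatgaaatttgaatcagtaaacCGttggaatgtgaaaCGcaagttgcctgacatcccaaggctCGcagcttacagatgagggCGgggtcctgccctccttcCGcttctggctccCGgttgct
The 2 sequences were unlike in composition. The *Galnt7* sequence held 19 CpG dinucleotides and 73.6% G and C, and 19.7% of the 32851 promoter windows of this length held at least as many CpG. The *Agbl2* sequence held 8 CpG dinucleotides and 48.4% G and C, and 43.0% of windows held at least as many. The median window held 6. A second annotated start of *Agbl2* further into the gene had 16 CpG dinucleotides before it. The *Galnt7* window lies inside AW046200, a noncoding RNA gene of the opposite strand annotated as sharing its promoter, and AW046200 is not listed. The *Agbl2* window lies in the short gap between the end of *Fnbp4* and the start of *Agbl2*. On both strands, neither sequence held CACGTG, which 6.0% of windows held, nor TATAAA, which 12.4% held.

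The table lists only genes to which the authors' own test gave an adjusted P below 0.05, so every value below comes from genes already selected for a difference between these 6 libraries. Counts over the listed genes summed to between 4060653 and 4258350 per library, and how deeply the libraries were sequenced beyond these genes is unknown. *Ehmt2* itself was not analysed here, so the genotypes were not checked on the deleted gene. Of 18 oocyte markers fixed as a list, 7 are listed, and their summed normalized count lay between 45449 and 54865 in control and between 55834 and 59627 in Ehmt2GKO libraries. The 7 did not move together, since 3 had a log2 fold change above 0 and 4 below, with a median of -0.40 against -0.32 over all genes tested. *Zp3*, a zona pellucida gene, was called lower at -1.05, a call lost with DESeq2 (-0.96), and no other of the 7 was called. *Zp1* had -0.86 and was called without control replicate 1 (-1.08). *Nlrp5*, a maternal-effect gene with 18179 control and 25924 Ehmt2GKO normalized counts, made up the largest share of the sum. Of 24 markers of cumulus and granulosa cells, *Ptgs2* and *Kitl* are listed, and their sum lay between 324 and 367 in control and between 259 and 349 in Ehmt2GKO libraries. *Ptgs2* rose, with 6, 10 and 14 reads in control and 107, 74 and 59 in Ehmt2GKO libraries, and *Kitl*, the Kit ligand, had a log2 fold change of -0.63 that did not pass the threshold. No listed marker of these cells was at 0 in either group. The part of other cell types in the values below was not tested. If a library holds several oocytes, which the sources used here do not state, fewer cells with a transcript and less transcript per cell cannot be told apart.

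Reads are given for control replicates 1, 2 and 6 and then for Ehmt2GKO replicates 3, 4 and 5. *Galnt7* had 9, 7 and 5 control reads against 2807, 3250 and 2379 Ehmt2GKO reads. After division by DESeq2's size factors, this gave 6.81 ± 2.00 normalized counts (SD, n = 3) in control and 2902 ± 496 (SD, n = 3) in Ehmt2GKO oocytes, a 426-fold difference between the means. The lowest Ehmt2GKO library lay 283-fold above the highest control library. All control libraries were close to 0 and all Ehmt2GKO libraries were high, and the highest of these was replicate 4.

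*Agbl2* had 14, 10 and 8 control reads against 896, 842 and 841 Ehmt2GKO reads. The normalized counts were 10.4 ± 3.06 (SD, n = 3) in control and 886 ± 8.48 (SD, n = 3) in Ehmt2GKO oocytes, and the means differed 85.3-fold. The lowest Ehmt2GKO library lay 64.0-fold above the highest control library. The Ehmt2GKO libraries were almost equal to each other, between 879 and 895 normalized counts.

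*Fam171b* had 20, 19 and 35 control reads against 380, 384 and 341 Ehmt2GKO reads. The normalized counts were 23.9 ± 8.59 (SD, n = 3) in control and 379.6 ± 25.8 (SD, n = 3) in Ehmt2GKO oocytes, a 15.9-fold difference. *Fam171b* was thus the least silent of the 3 genes in control oocytes, and control replicate 6 stood above the other 2 control libraries. The groups still did not overlap, since the lowest Ehmt2GKO library lay 10.6-fold above the highest control library. Over the whole table, the Ehmt2GKO libraries all lay above the control libraries in 50.1% of listed genes and all below them in 46.0%, and for *Galnt7*, *Agbl2* and *Fam171b* the choice of the genes fixed this direction.

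**Figure D1:**
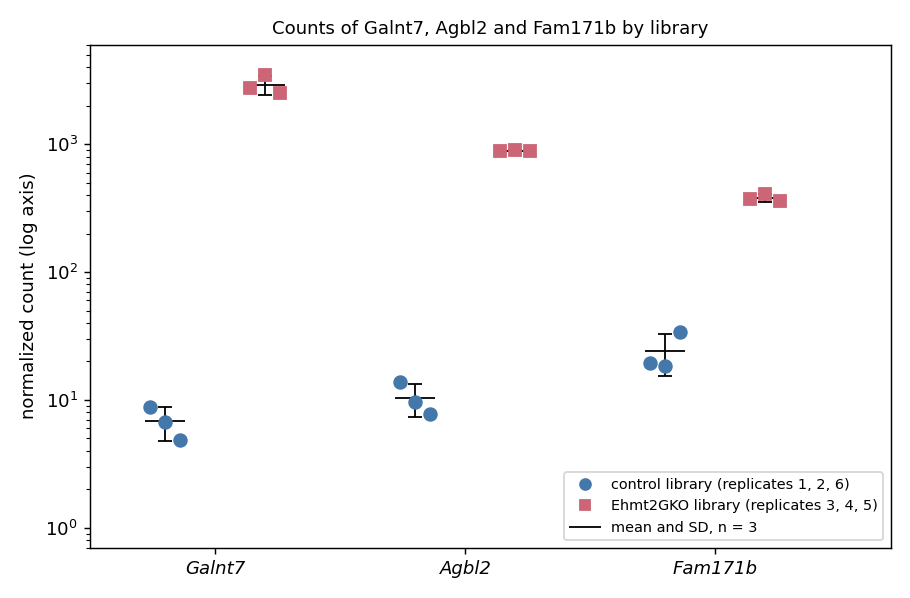
Normalized counts (vertical log axis, no unit) of *Galnt7*, *Agbl2* and *Fam171b* in each library, with circles for control replicates 1, 2 and 6, squares for Ehmt2GKO replicates 3, 4 and 5, and bars for the mean and SD of 3 libraries. The control means run from 6.81 for *Galnt7* to 23.9 for *Fam171b*, and the Ehmt2GKO means from 379.6 for *Fam171b* to 2902 for *Galnt7*.

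Per kilobase of annotated exon, the order of the genes was opposite in the 2 groups. In control oocytes *Fam171b* had 4.17 normalized counts per kb, *Agbl2* 1.56 and *Galnt7* 1.30. The control libraries of *Galnt7*, from 0.92 to 1.68 per kb, overlapped those of *Agbl2*, from 1.16 to 2.07 per kb, and those of *Fam171b* lay above both, from 3.20 to 5.89 per kb. In Ehmt2GKO oocytes *Galnt7* had 552 normalized counts per kb, *Agbl2* 133 and *Fam171b* 66.1. Here no libraries of different genes overlapped, with *Galnt7* between 475 and 658 per kb, *Agbl2* between 132 and 135 per kb and *Fam171b* between 62.3 and 71.1 per kb.

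The genes also differed in how closely the libraries agreed. In Ehmt2GKO oocytes the coefficient of variation was 17.1% for *Galnt7*, 6.80% for *Fam171b* and 0.958% for *Agbl2*. Random counting of reads alone would give 1.89%, 5.21% and 3.41%. The spread of *Galnt7* was thus well above counting error, that of *Fam171b* was close to it, and that of *Agbl2* was below it. Over the 1216 listed genes with an Ehmt2GKO mean at least as high as that of *Fam171b*, the median coefficient was 8.86%, with quartiles of 5.68% and 12.7%. In control oocytes, where the counts are small, the coefficients were 29.3% for *Galnt7*, 29.5% for *Agbl2* and 35.9% for *Fam171b*, against 37.8%, 30.6% and 20.1% from counting alone. In Ehmt2GKO oocytes, replicate 4 had the highest normalized count of all 3 genes. Replicate 5 had the lowest for *Galnt7* and *Fam171b*, and replicate 3 the lowest for *Agbl2*.

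Few listed genes combined so low a control level with so high a level in Ehmt2GKO oocytes. *Galnt7*, *Agbl2* and *Fam171b* were chosen for this pattern, so their own presence and rank among such genes are a description and not a result. Of the 2615 listed genes, 373 had a control mean at or below that of *Fam171b*, and 6 of these also reached its Ehmt2GKO mean. All 6 are protein-coding, as are 2259 of the 2615 listed genes, and they include *Galnt7*, *Agbl2* and *Fam171b* themselves. The other 3 were *Olfr48*, *Gab1* and *Gm11232*, which are named after their values were seen. *Olfr48*, an odorant receptor gene, went from a control mean of 1.29 normalized counts to 558. *Gab1*, which encodes a docking protein of receptor tyrosine kinases, had 21.7 and 520, and *Gm11232* had 11.0 and 449. *Galnt7* had the highest Ehmt2GKO level of the 6 and *Agbl2* the next.

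**Figure D2:**
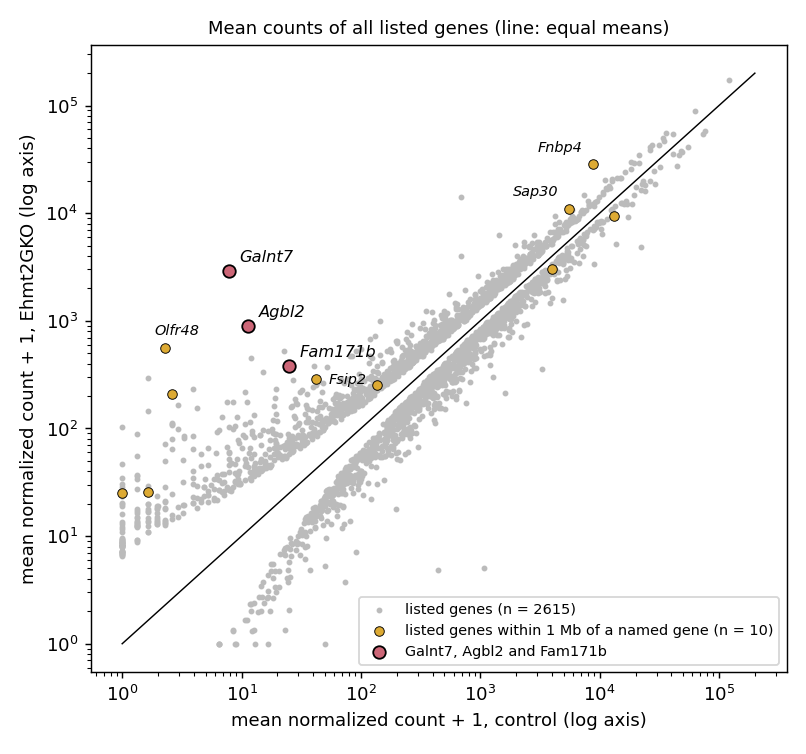
Mean normalized count plus 1 in control (horizontal log axis) and Ehmt2GKO oocytes (vertical log axis) for each of the 2615 listed genes, with *Galnt7*, *Agbl2* and *Fam171b* in red, the 10 listed genes within 1 Mb of them in yellow and a line of equal means. The 3 genes lie at the upper left of the cloud, with control means of 6.81, 10.4 and 23.9 and Ehmt2GKO means of 2902, 886 and 379.6.

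The genes around each of the 3 were examined next, since the deposited positions place 10 other listed genes within 1 Mb. The quasi-likelihood test of edgeR was fitted over all 2516 genes that passed a filter on low counts, and calls needed more than a 2-fold change together with an adjusted P (Benjamini-Hochberg) under 0.01. Log2 fold changes are those fitted by edgeR with its own scaling, unless DESeq2 is named, and can differ from the ratio of the normalized means. SE stands for the standard error of the log2 fold change. Of the 10 neighbours, 6 were called higher and 0 lower in Ehmt2GKO oocytes. Of all tested genes, 18.7% were called higher, 16.9% lower and 35.7% in either direction. The odorant receptor genes among the 6 had at most 3 reads in any control library. A call of lower was out of reach for them, so the count of 6 against 0 cannot be set against these percentages. A stricter filter, of 10 or more reads per library, removed such genes and left *Fnbp4*, *Ckap5*, *Fsip2*, *Tfpi*, *Fbxo8* and *Sap30*. Of these neighbours, 2 were called higher and 0 lower. Under this filter, calls over all genes were 297 higher and 314 lower, so the percentages above do not apply to it. In the edgeR fit over all 2516 genes, 2 neighbours were lower at an unadjusted P below 0.05, and DESeq2 called 0 lower. These 2, *Ckap5* and *Fbxo8*, also had an edgeR adjusted P under 0.01 (0.000306 and 7.95e-05) and missed a call only by their fold change. Over all genes tested the median log2 fold change was -0.32. That of the 10 was 2.16, raised by the odorant receptor genes, so it cannot be set against this background either. Setting *Olfr32*, which had no control reads, to its lower bound could not change this median, since that bound of 4.64 lies above the middle values. Around *Agbl2* 5 of 6 neighbours were called, around *Fam171b* 1 of 2, and around *Galnt7* 0 of 2, with 1 of these lower and 1 higher without passing the threshold.

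Most annotated genes of these windows are not listed at all. Of the protein-coding genes annotated within 1 Mb, 2 of 7 are listed around *Galnt7*, 6 of 51 around *Agbl2* and 2 of 29 around *Fam171b*, or 28.6%, 11.8% and 6.90%. In the whole annotation 10.3% of protein-coding genes are listed. The rule by which genes were left out is not given in the sources used here. The result of the authors' test for a gene that is not listed is therefore unknown, and its counts were not analysed here.

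The nearest listed neighbour of any of the 3 was *Fnbp4*, which encodes a formin-binding protein. It ends 1705 bp before *Agbl2* begins, on the same strand, and no other protein-coding gene is annotated between them. *Fnbp4* had 7777, 8746 and 10650 control reads against 25671, 29956 and 27179 Ehmt2GKO reads. It was abundant in both groups, and every Ehmt2GKO library lay above every control library. After division by DESeq2's size factors, *Fnbp4* rose from 8794 ± 1365 to 28518 ± 3333 normalized counts (SD, n = 3 each). The log2 fold change fitted by edgeR was 1.61 (SE 0.12, edgeR adjusted P = 1.49e-08).

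*Agbl2* and *Fnbp4* were both higher in Ehmt2GKO oocytes, at very different levels. Per kilobase of exon, the mean level of *Fnbp4* was 1336 normalized counts in the controls and 4332 after deletion of *Ehmt2*. The *Agbl2* level per kb was 0.178%, 0.113% and 0.0744% of the *Fnbp4* level in control replicates 1, 2 and 6, and 3.46%, 2.78% and 3.06% of it in Ehmt2GKO replicates 3, 4 and 5. This share rests on the counts by which *Agbl2* was chosen and is given as a description. Across the Ehmt2GKO libraries *Fnbp4* varied from 25178 to 31844 normalized counts, while *Agbl2* varied from 879 to 895. The part of *Fnbp4* transcription in the count of *Agbl2* was not tested. On the other side, the next annotated protein-coding gene is *Mtch2*, 12717 bp after *Agbl2*, and it is not listed.

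**Figure D3:**
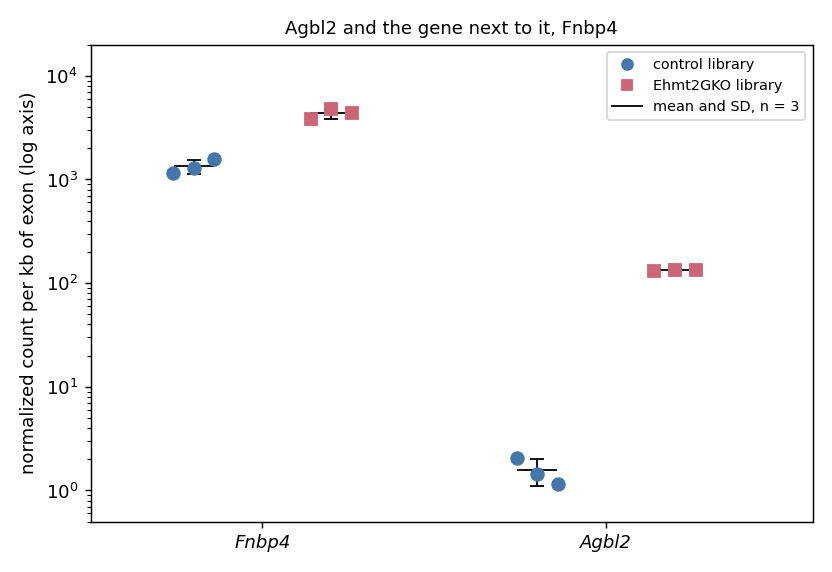
Normalized counts per kb of annotated exon (vertical log axis) of *Fnbp4* and *Agbl2* in each library, with circles for control, squares for Ehmt2GKO and bars for the mean and SD of 3 libraries. *Fnbp4* goes from a mean of 1336 to 4332 per kb, and *Agbl2* from 1.56 to 133 per kb.

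The other called neighbours of *Agbl2* were 4 odorant receptor genes, between 640.4 and 934.5 kb before it. *Olfr48* had 1, 3 and 0 control reads against 530, 653 and 439 Ehmt2GKO reads. *Olfr1257* had 3, 0 and 2 against 231, 200 and 174. Both were almost without reads in control oocytes, as *Galnt7* was. *Olfr1258* stayed lower, with 2, 0 and 0 against 29, 27 and 16. *Olfr32* had 0, 0 and 0 against 17, 33 and 20, and was at least 24.96-fold higher against a floor of 3 reads over the control group. *Ckap5*, which encodes a microtubule polymerase, was the listed neighbour on the other side, 692.3 kb away. It had 4056, 4058 and 4219 control reads against 2910, 3093 and 2833 Ehmt2GKO reads. The groups did not overlap, yet the log2 fold change of -0.49 (SE 0.097) was too small for a call.

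Around *Fam171b*, the called neighbour was *Fsip2*, 803.7 kb before it on the same strand. *Fsip2* encodes a protein of the fibrous sheath of the sperm tail. It had 27, 57 and 43 control reads against 295, 298 and 250 Ehmt2GKO reads, so the groups did not overlap. The normalized counts rose from 41.1 ± 14.3 to 289.5 ± 27.2 (SD, n = 3 each), with a log2 fold change of 2.72 (SE 0.24, edgeR adjusted P = 9.55e-08). Like *Fam171b*, *Fsip2* had few but some reads in every control library.

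*Tfpi*, which encodes an inhibitor of blood coagulation, lies 549.4 kb after *Fam171b* on the opposite strand. It had 232, 96 and 91 control reads against 248, 264 and 217 Ehmt2GKO reads. Control replicate 1 stood apart from the other control libraries and reached the level of the Ehmt2GKO libraries. The log2 fold change was 0.78 (SE 0.28, edgeR adjusted P = 0.0134) and did not pass the thresholds, and without control replicate 1 it was 1.38 and *Tfpi* was called. The genes annotated closest to *Fam171b*, *Itgav* 5719 bp before it and *Zswim2* 31592 bp after it, are not listed.

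Around *Galnt7* no listed neighbour was called. *Sap30*, which encodes a subunit of the SIN3 histone deacetylase complex, lies 36.0 kb after the end of *Galnt7* on the same strand. It had 5704, 6437 and 5067 control reads against 10430, 9566 and 12089 Ehmt2GKO reads. All Ehmt2GKO libraries lay above all control libraries, with a log2 fold change of 0.89 (SE 0.12, edgeR adjusted P = 7.51e-06) that stayed below 2-fold. *Fbxo8*, which encodes an F-box protein, lies 929.9 kb away and had 13135 ± 909 control and 9376 ± 661 Ehmt2GKO normalized counts (SD, n = 3 each), a log2 fold change of -0.58 that was not called. On the other side, no listed gene lies closer than *Hpf1*, 3.24 Mb away, with a log2 fold change of 0.46. *Hmgb2*, 7828 bp after *Galnt7*, and *Galntl6*, a gene of the same family 121019 bp before it, are not listed.

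**Figure D4:**
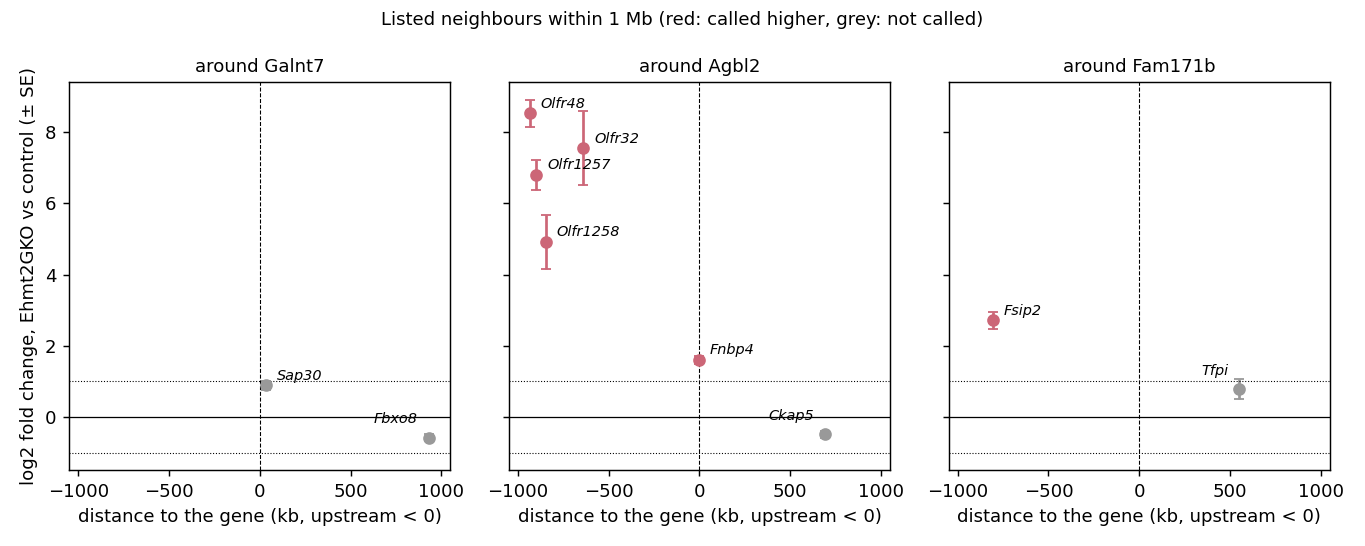
Log2 fold change of Ehmt2GKO against control with its standard error (vertical axis) against the distance in kb from *Galnt7*, *Agbl2* or *Fam171b* (horizontal axis, negative values upstream in the gene's own direction) for the 10 listed neighbours within 1 Mb, with called genes in red, others in grey and dotted lines at 2-fold. Called genes stand around *Agbl2* and *Fam171b*, while *Sap30* and *Fbxo8* near *Galnt7* lie at 0.89 and -0.58; the fitted values of the odorant receptor genes depend on control counts near 0 and are not bounds.

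*Fam171b* and *Agbl2* lie 6.90 Mb apart on chromosome 2. Between them the table lists 18 genes, of which 13 were tested, 8 called higher and 3 lower. Of the other listed genes of chromosome 2, 169 were tested, 21 called higher and 30 lower. In the stretch, *Olfr48*, *Olfr1257*, *Olfr1258*, *Olfr32*, *Olfr994* and *Olfr995*, called higher, had at most 3 reads in any control library. *Gm13715* and *Olfr1052*, called lower, had at most 1 read in any Ehmt2GKO library. A call in the other direction was out of reach for these genes, so the counts of calls cannot be set against those of the other genes. The stretch held calls in both directions, and apart from *Fnbp4*, *Tfpi* and the noncoding RNA *Gm13715* its listed genes bear the names of odorant receptor genes or pseudogenes. It was examined after the values had been seen, and no test was made of it.

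Other members of the pathways and families of the 3 genes were mostly not listed. Of 20 polypeptide N-acetylgalactosaminyltransferase genes, 3 are listed, which are *Galnt7*, *Galnt3* and *Galnt6*. *Galnt3* had 272, 276 and 302 reads in control and 500, 522 and 469 in Ehmt2GKO libraries, with a log2 fold change of 0.80 (SE 0.14). *Galnt6* had 719, 570 and 706 reads in control and 896, 794 and 1002 in Ehmt2GKO libraries, with a log2 fold change of 0.42 (SE 0.13). Neither passed the threshold of 2-fold, and both had at least 272 reads in every control library, where *Galnt7* had fewer than 10.

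Of 15 genes for enzymes that extend or cap O-glycans, 3 are listed. *St6galnac5*, a sialyltransferase gene, was called higher at low counts, with 0, 3 and 2 reads in control and 27, 18 and 24 in Ehmt2GKO libraries. With so few control reads, a call of lower was out of reach for *St6galnac5*. *Gcnt4*, which encodes a branching enzyme, had a log2 fold change of 0.41 and the sialyltransferase gene *St6galnac3* one of -0.70, and neither was called.

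Of the 6 genes of the carboxypeptidase family of *Agbl2*, *Agbl1* was the other one listed. It had 6, 15 and 12 reads in control and 51, 28 and 20 in Ehmt2GKO libraries, so it too was low in control oocytes and had at most 51 reads. Its log2 fold change was 1.56 (SE 0.45, edgeR adjusted P = 0.00376). The call was lost without control replicate 1, where the log2 fold change was 1.28, and without Ehmt2GKO replicate 3, where it was 1.12.

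Among the genes of the tubulin tyrosine ligase-like family, 1 of 14 is listed. This was *Ttll13*, with a log2 fold change of 0.82 that was not called. Of 5 genes that act in removing the terminal tyrosine of tubulin, *Svbp* is listed, which encodes the partner of the vasohibins. It was called lower, from 67.7 ± 11.5 to 35.4 ± 6.61 normalized counts (SD, n = 3 each). Its log2 fold change was -1.03 (SE 0.30, edgeR adjusted P = 0.00387), and it lay within 2-fold with DESeq2 (-0.94). Without control replicate 1 it was -0.88, and without Ehmt2GKO replicate 5 also -0.88, and neither value was called. Of the 3 genes of the FAM171 family, *Fam171b* alone is listed.

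Profiles like those of the 3 genes were sought by the Euclidean distance between log2(normalized count + 1) over the 6 libraries, after each gene's mean was subtracted. This distance rests mostly on the size of the difference between the groups. The closest listed genes to *Galnt7* were *Olfr48* at a distance of 1.30, the noncoding RNA *Gm45768* at 1.502 and *Klf12* at 2.37. *Klf12* encodes a transcription factor that acts as a repressor, and it had no control reads. With the added constant set to 0.5 the same 3 genes were closest, and with 5 it was 2 of them.

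For *Agbl2* the closest were *Klf12* at 0.71 and the pseudogenes *Gm11953* and *Gm13726* at 1.14 each. For *Fam171b* they were *Usp17ld*, a gene of a deubiquitinase family, at 0.57, the pseudogene *Gm4850* at 0.69 and *Olfr1217* at 0.70. Near-identical copies, with which *Usp17ld* and the pseudogenes may share reads, were not searched for these genes. These lists depended on the added constant, since with 0.5 they shared 1 gene each and with 5 they shared 0 genes with those named. Among themselves, *Galnt7* and *Agbl2* lay 2.76 apart, *Agbl2* and *Fam171b* 3.07 and *Galnt7* and *Fam171b* 5.72.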

How the data were processed

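Polyadenylated RNA of oocytes labelled MII was amplified with the Smart-Seq v4 chemistry, which does not mark strand. The authors deposited raw read counts per gene for 3 control and 3 Ehmt2GKO libraries, with positions on GRCm38. The authors also deposited their own fold changes, P values and adjusted P values for each gene. Their adjusted P was used only to check that all 2615 rows lie below 0.05. The submitters' processing notes name HISAT2 and DESeq2, and the counting program and annotation are not given in the sources used here. Reduced representation bisulfite samples were not analysed here.

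Groups came from the genotype labels, and replicate numbers from the titles. The members and gene lists were chosen with earlier results of these data known. Normalized counts are counts over size factors estimated by DESeq2 1.42.0 with its median-ratio method. The fits used edgeR 4.0.16 in R 4.3.3 with filterByExpr (minimum count 10), TMM factors and the quasi-likelihood test with Benjamini-Hochberg adjustment over 2516 genes. Their P values restate the authors' selection of genes. The scripts were tested on simulated data. No exact permutation test was run, since 3 libraries a group allow no P under 0.10. Depth over the listed genes was 4060653 to 4258350 reads per library, which leaves counting errors of 20.1% to 37.8% on the control counts of the 3 genes and 1.89% to 5.21% on their Ehmt2GKO counts.

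Neighbours were listed genes within 1 Mb, end to end. Transcripts, exon lengths and unlisted genes came from GENCODE vM21, and promoter windows from the RefSeq table on GRCm38.p6. Near-identical copies were sought with blastn 2.17.0 at 95% identity over 50% of the longest transcript. Genes named were the 3 members, called neighbours, the nearest listed gene on each side, the 3 closest profiles of each member and listed genes of the families, and others are marked. Distances with the constants 0.5 and 5 were added after seeing the data.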

Additional observations from a re-analysis of the deposited data

How the results depend on the processing

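The log2 differences of log2(normalized count + 1) between the groups were 8.56 for *Galnt7*, 6.32 for *Agbl2* and 3.98 for *Fam171b*. Over 9 alternatives each, 3 other scalings and 6 fits without 1 library, they lay between 8.36 and 8.74, 6.14 and 6.52, and 3.83 and 4.25, and moved by less than the spread between libraries. Of the 6 neighbours called higher, 2 were left where at least 10 counts were required in every library, a filter that removes genes near 0 in control oocytes, and 1 lay within 0.5 Mb. Without each library in turn 6 to 7 were called, and 0 neighbours were called lower in every alternative. Of 374 alternative values for 34 other named genes, 0 reversed, 10 lost a call and 2 gained one, in 5 genes. The filter of at least 10 counts in every library and the adjusted P limit of 0.05 were left out of these values. The split of all called genes was 52.5% higher, and 60.4% with DESeq2. No paired analysis was possible because control and Ehmt2GKO libraries bear different replicate numbers. All alternatives ran on genes already selected for a difference, and the sequencing depth beyond these genes is unknown.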
